A study of Rattus norvegicus with 24 samples.

Results

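The comparison described here sets rat INS-1E cells that received BRD0476 together with cytokines for 12 h against cells that received DMSO, the vehicle, with the same cytokines for 12 h. INS-1E is an insulin-secreting line derived from a rat insulinoma and is a common stand-in for pancreatic beta cells, although as a dividing tumour line it differs from the cells of an islet. The cytokine mixture held IL-1b at 10 ng/ml, IFN-g at 50 ng/ml and TNF-a at 25 ng/ml, and BRD0476, a small molecule that earlier work has tied to protection of beta cells from cytokines, was given at 10 uM. The comparison rests on 6 of the 24 arrays of the series, 3 with BRD0476 and 3 with DMSO, chosen by their group labels alone. The other 18 arrays hold the same cells at 12 h with DMSO or BRD0476 but no cytokines, and all 4 combinations at 6 h, with 3 arrays each. All cells grew in the same serum-containing RPMI medium, and total RNA was hybridised to one-colour Affymetrix arrays. The deposited intensities were taken to log2, so a level below is a log2 intensity and a difference of 1 is a change of 2-fold. In all, 14217 genes with a name were tested. The labels do not say whether the 3 arrays of a group came from separate cultures. The p-values rest on a spread within groups that was estimated over all 24 arrays, and that spread may be technical.

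As background, IFN-g binds a receptor that carries the kinases JAK1 and JAK2, which activate transcription factors of the STAT family. These bind a short palindrome called the GAS site and switch on IRF1 among others, and IRF1 and the other interferon regulatory factors bind a related element called the ISRE in a wide set of antiviral and antigen-presentation genes. IL-1b and TNF-a act mainly through NF-kappaB, which drives chemokines, adhesion molecules and survival genes. In beta cells the combined cytokines lower the genes of the mature secretory cell and lead to cell death. Earlier work on BRD0476 has linked it to JAK-STAT signalling and to the deubiquitinase USP9X.

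The arrays were alike in overall level. Array medians lay between 5.49 and 5.57 over the whole series, and arrays of one group correlated with r of 0.994 to 0.998 for BRD0476 and 0.992 to 0.996 for DMSO. Across genes, the deviations of BRD0476 array 1 and DMSO array 3 from their group means correlated with r = 0.525. Those of BRD0476 array 3 and DMSO array 2 correlated with r = 0.446, and those of BRD0476 array 1 and DMSO array 2 with r = -0.506. The labels give no batch, and the part of one in this was not tested. Leaving out BRD0476 array 1 and DMSO array 3 gave 3059 genes past the test described below in place of 3827. Outside the comparison, array 1 of BRD0476 without cytokines at 6 h stood apart for some interferon-induced genes. Cxcl10 read 7.16 there against 3.90 and 4.33 in its group, Gbp2 5.57 against 3.03 and 3.49, and Rsad2 6.65 against 4.26 and 4.23. All arrays enter the spread of a gene, so this array widens the standard errors given for these genes. Markers of beta cells, the cell type behind the labelled insulinoma, were bright. Ins1 and Ins2 stood at 14.56 and 14.37 with DMSO and cytokines. The 7 leukocyte markers were dim in both groups, with a summed linear intensity of 119.9 to 132.4 with BRD0476 and 118 to 133.1 with DMSO, and none of them passed the test. The labels also name pancreatic islets as the tissue. Of other islet hormones, somatostatin, ghrelin and pancreatic polypeptide had means of 3.73 to 4.24, near the lower quartile of all values (3.84), while glucagon stood at 9.93. The other 6 exocrine and duct markers were at or below 3.9, but Krt7 stood at 11.60.

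With cytokines present, BRD0476 was followed at 12 h by lower levels of most interferon-induced genes. A wider, weaker set was higher, which included the beta-cell transcription factors Nkx6-1, Nkx2-2 and Mafa and some exocytosis genes. Of the 14217 genes, 3827 (26.9%) passed limma's test at an adjusted p under 0.05, 2323 (16.3%) higher and 1504 (10.6%) lower with BRD0476. Each list count below is to be read beside these shares. Large changes were mostly falls, since 328 genes (2.31%) fell at least 2-fold and 121 (0.851%) rose as much, and 70 fell and 6 rose at least 4-fold. Most calls were small: 60.5% of them were under 0.5 on the log2 scale, against a median standard error of 0.10. The groups did not overlap in 5023 genes (35.3%), of which 3590 also passed the test. Because these are bulk RNA samples, fewer cells expressing a gene and less RNA per cell cannot be told apart. When only the 6 arrays compared entered the fit, 2379 genes passed, 1310 of them higher.

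**Figure D1:**
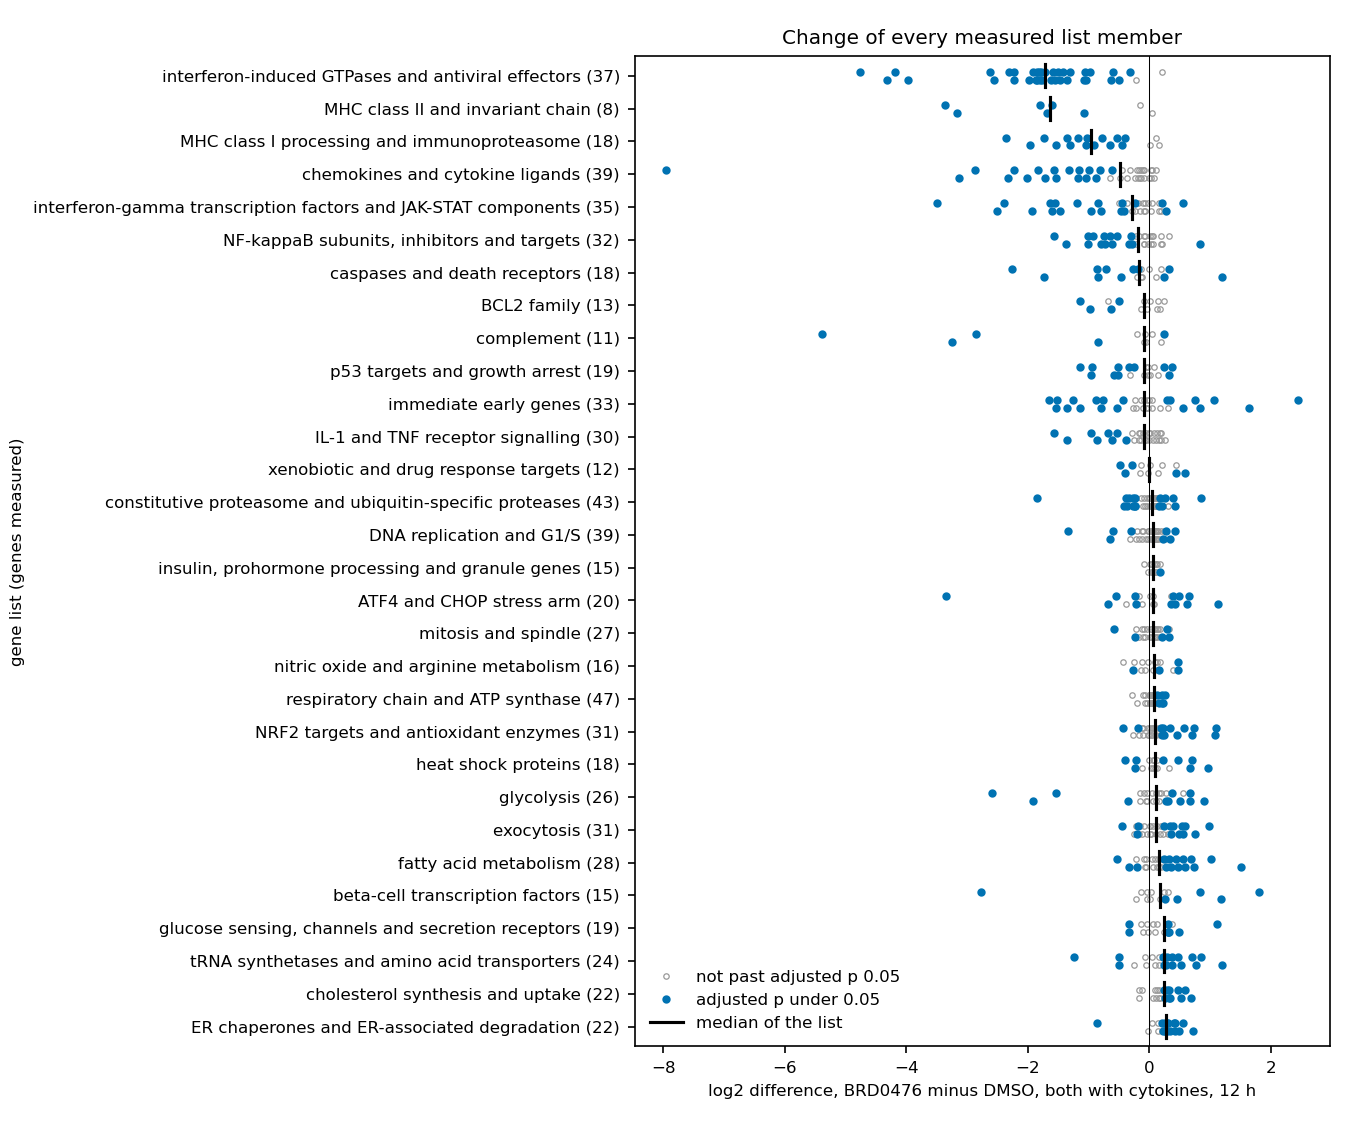
Each row is a gene list with the number of its measured genes, and each point is the log2 difference of 1 gene between the means of 3 arrays with BRD0476 and 3 with DMSO, both with cytokines at 12 h. Filled points passed limma's test at an adjusted p under 0.05, open points did not, and the black bar is the median of the list; the interferon-induced GTPases sit lowest with a median of -1.72 and the ER chaperones highest with a median of 0.27.

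The largest fall was that of Cxcl9, a chemokine that draws activated T cells and is induced by IFN-g. Its arrays read 12.31, 12.32 and 12.18 with DMSO and cytokines and 4.27, 4.40 and 4.28 with BRD0476 and cytokines. The groups were far apart, and the BRD0476 arrays lay among those of cells that had seen neither agent, which averaged 4.23 ± 0.23 (SD, n = 3). The log2 difference was -7.95 (SE 0.23, adjusted p = 1.05e-15), a 248-fold fall, and since the lower level is that of untreated cells near the bottom of the scale, it can understate the change. C1s, a serine protease of the complement cascade, went from 10.04, 9.78 and 9.91 to 4.50, 4.59 and 4.47 and fell by 5.39 (SE 0.12, adjusted p = 2.47e-17). Mpeg1, a pore-forming protein best known from macrophages, went from 10.02, 9.95 and 9.79 to 4.80, 4.73 and 4.54 and fell by 5.23 (SE 0.12, adjusted p = 2.4e-17). For neither gene did any array of one group reach the other group. The size for Mpeg1 depended on the processing. Over the alternative runs described below it lay between -5.35 and -2.99, always past the test, and that of C1s between -5.45 and -5.32. The other 9 of the 12 largest falls, between -4.75 and -3.85, were Gbp4, Ifitm3, Ifit2, Plaat3, Sectm1b, Ifit3, Gbp2, Areg and Tmem140. Areg, a ligand of the EGF receptor that is not a classical interferon gene, read 8.85, 8.70 and 9.08 with DMSO and 4.74, 4.73 and 5.48 with BRD0476.

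Among the signalling genes themselves, Jak2, a kinase of the IFN-g receptor, read 9.20, 9.38 and 9.71 with DMSO and 7.82, 7.73 and 7.95 with BRD0476. It fell by 1.60 (SE 0.14, adjusted p = 1.05e-08), which left it above the untreated mean of 7.20. Jak1, the partner kinase, differed by 0.20 (SE 0.05, adjusted p = 0.00496), but the mean of its 2 probe sets gave 0.14 with an adjusted p of 0.232. Irf1, the first relay of the IFN-g response, read 13.34, 13.41 and 13.19 with DMSO and 10.77, 10.80 and 10.88 with BRD0476, with no overlap, and fell by 2.50 (SE 0.11, adjusted p = 4.41e-13). Its level with BRD0476 still stood 2.58 above untreated cells (adjusted p = 1.35e-13), against 5.08 with cytokines and DMSO. Socs1, the feedback inhibitor of the JAK kinases, went from 8.57, 8.96 and 8.24 to 4.74, 5.29 and 5.25, and fell by 3.50 (SE 0.20, adjusted p = 2.49e-11). Its level with BRD0476 was 0.64 above untreated cells (adjusted p = 0.0188). The second of its 2 probe sets did not pass the test. Nlrc5 and Stat2 also fell. Nlrc5, the transactivator of MHC class I genes, fell by 2.39 (SE 0.16, adjusted p = 1.99e-10). Stat2, a transcription factor of the type I interferon response, fell by 1.93 (SE 0.13, adjusted p = 4.23e-10). Of the 35 measured genes of the JAK-STAT and interferon regulatory factor list, 16 fell and 3 rose, with a list median of -0.29 beside 0.036 over all genes. Those that rose were Jak1, Pias3 and the receptor subunit Il6st, and only 1 of them passed when BRD0476 array 1 and DMSO array 3 were left out. The receptor chains Ifngr1 and Ifngr2 differed by -0.02 and 0.15 and did not pass. Socs3, another feedback inhibitor, was dim, at 4.49, 4.30 and 4.64 with DMSO and 4.02, 4.10 and 4.06 with BRD0476, and its difference of -0.42 (SE 0.14, adjusted p = 0.0276) lost the call without 5 of the 6 arrays in turn, with adjusted p up to 0.115 without DMSO array 3.

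The sequences before the start sites of 6 of these genes are shown because they carry the elements that the pathway is known to use. They are RefSeq sequences of the rat assembly GRCr8, written 5′ to 3′ in the direction of the gene and ending at the base before the annotated start, with each match in capitals. The letters searched, on both strands, were TTCNNNGAA for the GAS site and GAAANNGAAA for the ISRE, where N is any base. The windows are chr10:38417775-38417934 (+) for Irf1, chr10:5389364-5389573 (+) for Socs1, chr2:233978406-233978485 (+) for Gbp4, chr2:234005647-234005726 (+) for Gbp2, chr1:241527246-241527325 (+) for Ifit3 and chr20:4652297-4652376 (-) for Tap2, with the strand in parentheses.
Irf1: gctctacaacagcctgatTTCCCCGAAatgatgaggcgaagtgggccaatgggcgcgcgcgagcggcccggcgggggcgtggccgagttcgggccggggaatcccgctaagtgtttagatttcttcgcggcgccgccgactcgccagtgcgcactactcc
Socs1: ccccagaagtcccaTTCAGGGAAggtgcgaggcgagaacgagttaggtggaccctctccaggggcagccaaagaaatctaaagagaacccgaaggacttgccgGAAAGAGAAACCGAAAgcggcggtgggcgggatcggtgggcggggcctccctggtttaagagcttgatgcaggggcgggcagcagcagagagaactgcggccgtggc
Gbp4: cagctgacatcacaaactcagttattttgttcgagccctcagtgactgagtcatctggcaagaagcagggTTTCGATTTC
Gbp2: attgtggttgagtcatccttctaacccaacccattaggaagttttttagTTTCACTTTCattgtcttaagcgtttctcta
Ifit3: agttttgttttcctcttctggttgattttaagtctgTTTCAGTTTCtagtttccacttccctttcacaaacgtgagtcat
Tap2: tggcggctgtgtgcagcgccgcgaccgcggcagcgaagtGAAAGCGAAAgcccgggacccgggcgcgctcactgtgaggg
The capitals in Irf1 mark a GAS match whose first base lies 142 bases before the start. In Socs1 they mark a GAS match at 196 bases and 2 overlapping ISRE matches at 107 and 101 bases before the start. Gbp4, Gbp2, Ifit3 and Tap2 each hold an ISRE match, at 10, 31, 44 and 41 bases before the start. Within 250 bases before the start, a GAS match was found in 7.67% and an ISRE match in 3.41% of all 33469 RefSeq entries. Of the 29 interferon-induced GTPase and antiviral genes with an entry, 9 (31%) held a GAS match and 17 (58.6%) an ISRE match. Among 16 MHC class I and immunoproteasome genes, 2 (12.5%) held a GAS match and 8 (50%) an ISRE match. Among 28 chemokine and cytokine genes, 3 (10.7%) held a GAS match and 2 (7.14%) an ISRE match. Irf1 and Socs1 belong to the list of JAK-STAT genes and interferon regulatory factors. Of its 27 genes with an entry, 6 (22.2%) held a GAS match and 3 (11.1%) an ISRE match. A match is a run of letters and not a measured binding site.

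The interferon-induced GTPases and antiviral effectors moved together. Of 37 measured genes, 35 fell (94.6%) and none rose, with a median of -1.72. Slfn4 and Irgq, the others, differed by -0.21 and 0.21 and did not pass. Gbp4 and Gbp2 are guanylate-binding proteins, large GTPases that attack intracellular pathogens. Gbp4 read 10.14, 10.15 and 10.27 with DMSO and 5.32, 5.45 and 5.52 with BRD0476, and it fell by 4.75 (SE 0.14, adjusted p = 1.05e-15). Gbp2 read 12.04, 12.20 and 12.11 with DMSO and 8.25, 8.23 and 7.93 with BRD0476 and fell by 3.98 (SE 0.38, adjusted p = 5.36e-08). Ifit2 and Ifit3 encode proteins that bind foreign RNA. Ifit2 read 11.05, 11.04 and 11.26 with DMSO and 6.86, 6.88 and 6.64 with BRD0476 and fell by 4.32 (SE 0.13, adjusted p = 1.2e-15). Ifit3 read 9.31, 9.62 and 9.53 with DMSO and 5.38, 5.19 and 5.34 with BRD0476 and fell by 4.18 (SE 0.14, adjusted p = 6.62e-15). No array of either group overlapped the other for these genes. Zbp1, a sensor of nucleic acids that can start necroptosis, went from 7.02, 6.82 and 6.90 to 4.20, 4.53 and 4.15, near its untreated mean of 4.14. For most of the list the level with BRD0476 stayed above that of untreated cells: 32 of the 37 were higher in cells with both agents than in cells with neither, and 35 of 37 were higher with cytokines and DMSO. Of all genes, 32.2% differed between cells with both agents and untreated cells (12.1% higher, 20.1% lower), and 45.9% between cells with cytokines and DMSO and untreated cells (16% higher, 29.9% lower). Rsad2, an antiviral enzyme, shows this pattern, at 12.97, 12.97 and 13.05 with DMSO, 11.21, 11.01 and 11.00 with BRD0476 and 4.43 ± 0.10 (SD, n = 3) in untreated cells.

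**Figure D2:**
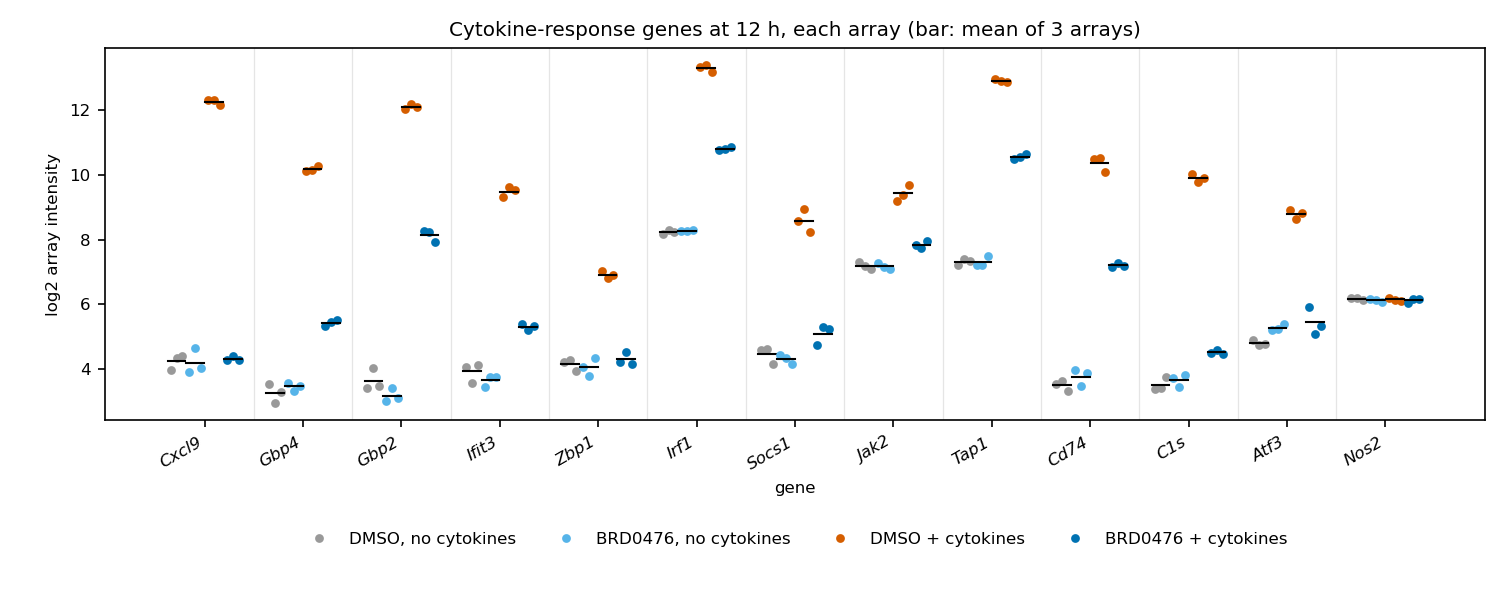
Log2 array intensity of 13 cytokine-response genes in the 4 groups at 12 h, 1 point per array and a bar at the mean of 3 arrays. Cxcl9 and Zbp1 with BRD0476 and cytokines lie near the groups without cytokines, Irf1, Tap1 and Gbp2 lie between, and Nos2 is level in all groups.

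Chemokines and cytokine ligands fell or did not pass: 18 of 39 fell (46.2%) and none rose. Cxcl10, which shares its receptor with Cxcl9, read 13.39, 13.61 and 13.47 with DMSO and 10.76, 10.71 and 10.41 with BRD0476. It fell by 2.86 (SE 0.47, adjusted p = 7.94e-05), yet it stayed 6.54 above untreated cells, unlike Cxcl9, whose difference from untreated cells was 0.08 (adjusted p = 0.834). Tnfsf10, the death ligand TRAIL, went from 9.84, 9.83 and 9.97 to 6.88, 6.70 and 6.68 and fell by 3.12 (SE 0.18, adjusted p = 1.87e-11). Ccl2, which attracts monocytes, and Cxcl2, which attracts neutrophils, fell by 2.32 and by 2.23. Ccl2 read 8.40, 8.44 and 8.44 with DMSO and 5.92, 6.23 and 6.16 with BRD0476, and Cxcl2 read 10.83, 10.57 and 10.72 with DMSO and 8.57, 8.43 and 8.44 with BRD0476. Neither gene overlapped between the groups. In the antigen-presentation lists, 15 of 18 MHC class I and immunoproteasome genes and 6 of 8 MHC class II genes fell and none rose, with medians of -0.96 and -1.63. Tap1, a chain of the transporter that supplies peptides to class I molecules, read 12.97, 12.91 and 12.89 with DMSO and 10.50, 10.56 and 10.65 with BRD0476 and fell by 2.35 (SE 0.09, adjusted p = 8.76e-14). The immunoproteasome subunit Psmb9 fell by 1.74 (SE 0.07, adjusted p = 1.01e-13). The class II chain RT1-Da read 9.68, 9.72 and 9.32 with DMSO and 6.30, 6.21 and 6.14 with BRD0476 and fell by 3.36 (SE 0.16, adjusted p = 1.39e-12). The invariant chain Cd74 read 10.49, 10.53 and 10.10 with DMSO and 7.14, 7.29 and 7.19 with BRD0476 and fell by 3.17 (SE 0.13, adjusted p = 1.01e-13). Calr, Canx and Pdia3, the general chaperones of the class I list, differed by 0.16, 0.11 and 0.01 and did not pass. The class I genes of the rat RT1 locus resemble each other closely, and probe sets may share signal between them. Of 11 complement genes 4 fell, namely C1s, Serping1, C1r and C3, and 1 rose. That was Cd55, a brake on complement, at 0.24 (SE 0.08, adjusted p = 0.0326), and its call was lost without DMSO array 1, DMSO array 2 or BRD0476 array 1 (adjusted p of 0.084, 0.178 and 0.167) and after centring the arrays (0.0621). Serping1, the inhibitor of C1r and C1s, read 11.36, 11.30 and 10.81 with DMSO and 7.68, 7.95 and 8.11 with BRD0476.

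Falls among NF-kappaB genes were mostly smaller in size. Of 32 measured, 14 fell (43.8%) and 1 rose, with a median of -0.19. The CD40 receptor gene Cd40 read 11.37, 11.40 and 11.47 with DMSO and 10.12, 9.99 and 10.03 with BRD0476, and it fell by 1.37 (SE 0.18, adjusted p = 4.92e-06). Sod2, the mitochondrial superoxide dismutase and a standard NF-kappaB target, read 13.17, 13.38 and 13.19 with DMSO and 12.55, 12.62 and 12.64 with BRD0476 and fell by 0.64 (SE 0.08, adjusted p = 1.49e-06). Both stayed above their untreated means of 4.77 and 11.07. Nfkbia, the inhibitor IkB-alpha, read 11.25, 11.29 and 11.51 with DMSO and 11.10, 11.01 and 11.03 with BRD0476. Its difference of -0.30 (SE 0.08, adjusted p = 0.00865) missed the threshold without DMSO array 3 (adjusted p = 0.0634) and with the 6 arrays alone (adjusted p = 0.0684). Icam1, an adhesion molecule, read 11.79, 11.88 and 11.43 with DMSO and 11.03, 11.08 and 11.16 with BRD0476 against an untreated mean of 4.54. Its difference of -0.60 (SE 0.18, adjusted p = 0.0174) missed the threshold without DMSO array 1, DMSO array 2 or BRD0476 array 1, with adjusted p of 0.0562, 0.0808 and 0.0545. The gene that rose was Nfkb2, a subunit of the alternative NF-kappaB pathway, at 10.21, 10.39 and 9.54 with DMSO and 10.52, 10.96 and 11.18 with BRD0476, and without DMSO array 3 no gene of the list rose. Of 30 genes of IL-1 and TNF receptor signalling 8 fell and none rose, although 2 rose without DMSO array 3 and 1 without DMSO array 1 or BRD0476 array 1. The kinases Map3k8, Ripk2 and Ripk1 fell by 1.57, by 1.35 and by 0.96. The receptors Il1r1 and Tnfrsf1a differed by 0.08 and -0.10 and did not pass. Nos2, the inducible nitric oxide synthase that cytokines raise in beta cells, read 6.21, 6.14 and 6.11 with DMSO, 6.05, 6.17 and 6.16 with BRD0476 and 6.17 ± 0.04 (SD, n = 3) in untreated cells. Its response to cytokines with DMSO at 12 h did not pass the test, with a difference of -0.02 (adjusted p = 0.928). Of 16 genes of nitric oxide and arginine metabolism 3 rose (18.8%) and 1 fell (6.25%), beside 16.3% and 10.6% of all genes. The arginase gene Arg1 rose by 0.47 (SE 0.07, adjusted p = 9.47e-06). Gch1, which makes a cofactor of nitric oxide synthase, was the fall, at -0.26 (SE 0.08, adjusted p = 0.0234), and leaving out single arrays gave between 0 (without BRD0476 array 2 or 3) and 2 falls (without DMSO array 2 or BRD0476 array 1).

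Several genes that take part in cell death were lower. Of 18 caspases and death receptors 8 fell (44.4%) and 3 rose (16.7%), beside 10.6% and 16.3% of all genes. Casp12 and Casp4 are inflammatory caspases. Casp12 read 7.07, 6.57 and 6.59 with DMSO and 4.50, 4.46 and 4.49 with BRD0476, and it fell by 2.26 (SE 0.14, adjusted p = 7.13e-11). Casp4 read 8.58, 8.80 and 8.69 with DMSO and 6.93, 6.94 and 7.01 with BRD0476 and fell by 1.73 (SE 0.12, adjusted p = 7.19e-10). The death receptor Fas read 9.99, 9.94 and 10.02 with DMSO and 9.17, 9.16 and 9.02 with BRD0476 and fell by 0.87 (SE 0.11, adjusted p = 2.73e-06), and 1 of its 3 probe sets passed. Tnfrsf21, known as death receptor 6, ran the other way, from 7.27, 7.21 and 6.69 to 8.26, 8.31 and 8.20, and rose by 1.20 (SE 0.11, adjusted p = 2.87e-08). The other genes that rose, Casp9 and Diablo, differed by 0.33 and 0.24, and without DMSO array 2 the list held 1 rise. In the BCL2 family 4 of 13 (30.8%) fell: the pro-death genes Bbc3, Bcl2l11 and Hrk and the pro-survival gene Mcl1. Bbc3, which encodes PUMA, read 8.73, 8.79 and 8.89 with DMSO and 7.57, 7.71 and 7.72 with BRD0476, a level close to the untreated mean of 7.76, and fell by 1.13 (SE 0.10, adjusted p = 1.41e-08). Bcl2l11, which encodes BIM, fell by 0.97 (SE 0.06, adjusted p = 1.78e-10), with 1 of its 3 probe sets past the test. Mcl1 fell by 0.63 (SE 0.10, adjusted p = 2.85e-05). Among 19 p53 targets and growth-arrest genes 8 fell (42.1%) and 3 rose (15.8%). Gadd45b fell by 1.14 (SE 0.11, adjusted p = 3.55e-08). The cell cycle inhibitor Cdkn1a varied more between arrays, at 10.32, 10.63 and 9.78 with DMSO and 8.91, 9.29 and 9.71 with BRD0476, and fell by 0.95 (SE 0.21, adjusted p = 0.00142).

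Nkx6-1, Nkx2-2 and Mafa, transcription factors of the mature beta cell, were higher with BRD0476, and each was lower with cytokines and DMSO than in untreated cells. Nkx6-1, which maintains beta-cell identity, read 7.15, 6.90 and 6.96 with DMSO and 8.74, 8.85 and 8.85 with BRD0476. The BRD0476 arrays lay at the untreated level, 8.77 ± 0.07 (SD, n = 3), and the gene rose by 1.81 (SE 0.11, adjusted p = 1.03e-10). Arrays with BRD0476 but no cytokines read 9.36, 9.11 and 9.35, above both of these groups. Nkx2-2 read 9.59, 9.48 and 8.82 with DMSO and 10.27, 10.62 and 10.52 with BRD0476 and rose by 1.18 (SE 0.17, adjusted p = 1.9e-05). Mafa, an activator of the insulin gene, read 11.24, 11.20 and 11.28 with DMSO and 12.20, 11.98 and 12.02 with BRD0476 and rose by 0.83 (SE 0.07, adjusted p = 4.42e-09). Their differences from untreated cells were 0.05, 0.04 and -0.15, none past the test. Pdx1 differed by 0.25 (SE 0.08, adjusted p = 0.0218), a call lost without DMSO array 1, DMSO array 2 or BRD0476 array 1, with adjusted p of 0.0971, 0.0717 and 0.0783, and after centring the arrays on their medians, with 0.06. Tcf7l2, a Wnt effector and diabetes risk gene, went the other way. It read 9.27, 8.80 and 9.30 with DMSO and 6.34, 6.35 and 6.35 with BRD0476, against 6.51 ± 0.10 (SD, n = 3) untreated. The gene fell by 2.77 (SE 0.15, adjusted p = 6.11e-12), and all 5 of its probe sets fell. Of the 15 transcription factors measured, 5 rose and 1 fell; the fifth rise, Hnf4a at 0.45, missed the threshold as the mean of its 3 probe sets (adjusted p = 0.0698).

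Neither insulin gene passed the test. Ins1 read 14.57, 14.52 and 14.60 with DMSO and 14.60, 14.60 and 14.54 with BRD0476, a difference of 0.02 (SE 0.05, adjusted p = 0.881), and Ins2 differed by 0.04 (SE 0.06, adjusted p = 0.695). Both stand near the top of the intensity scale, and saturation of their probes was not tested. Of 15 insulin-processing and granule genes 1 rose (6.67%), beside 16.3% of all genes. That was Scg3, by 0.18 (adjusted p = 0.0268). Its call was lost without DMSO array 1, DMSO array 2, BRD0476 array 1 or BRD0476 array 2 (adjusted p from 0.0553 to 0.146). Slc2a2, the glucose transporter GLUT2, read 12.91, 12.83 and 12.85 with DMSO and 13.42, 13.31 and 13.30 with BRD0476 and rose by 0.48 (SE 0.06, adjusted p = 7.2e-07). Of 19 glucose-sensing and channel genes 6 rose (31.6%) and 2 fell (10.5%), beside 16.3% and 10.6% of all genes. The falls were 1 without DMSO array 3, BRD0476 array 2 or BRD0476 array 3. Of 31 exocytosis genes 10 rose (32.3%) and 3 fell (9.68%), the falls being 1 without BRD0476 array 2. Rab27a, which docks insulin granules, read 6.70, 6.39 and 6.67 with DMSO and 7.51, 7.22 and 7.30 with BRD0476 and rose by 0.75 (SE 0.09, adjusted p = 2.64e-06). The granule GTPase Rab3a rose by 0.98 and spread widely, at 8.71, 8.76 and 8.19 with DMSO and 9.05, 9.71 and 9.86 with BRD0476, with BRD0476 array 1 and DMSO array 3 the lowest of their groups.

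The largest rises lay mostly outside the lists. Mest, an imprinted gene of the hydrolase family, read 8.11, 7.91 and 7.20 with DMSO and 10.41, 10.95 and 11.12 with BRD0476, against 10.58 ± 0.02 (SD, n = 3) untreated. It rose by 3.08 (SE 0.21, adjusted p = 4.11e-10), an 8.48-fold change. Pdzrn3, a ubiquitin ligase, read 5.28, 4.85 and 4.80 with DMSO and 8.12, 8.02 and 8.03 with BRD0476 and rose by 3.08 (SE 0.10, adjusted p = 2.26e-15). Both genes were at the untreated level with BRD0476, with differences of 0.25 and -0.21 that did not pass. C2cd4a, a gene of a diabetes-associated locus that responds to inflammation, read 6.27, 6.44 and 5.82 with DMSO and 8.94, 8.94 and 8.99 with BRD0476 and rose by 2.78 (SE 0.13, adjusted p = 1.21e-12). Its level with both agents exceeded that of untreated cells by 1.71 (adjusted p = 1.9e-09). Nr4a1, an orphan nuclear receptor of the immediate early class, read 4.78, 4.58 and 4.61 with DMSO and 6.96, 7.20 and 7.16 with BRD0476 and rose by 2.45 (SE 0.16, adjusted p = 1.77e-10). Rem2, a GTPase that restrains calcium channels, Fam163b, Nap1l5, the pentraxin Nptx1, the EGF receptor ligand Hbegf, the purinergic receptor P2ry1, the HLH factor Id4 and the GABA-B receptor partner Kctd12 made up the other 8 of the 12, between 2.06 and 1.82. Hbegf rose while Areg, a ligand of the same receptor, fell.

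**Figure D3:**
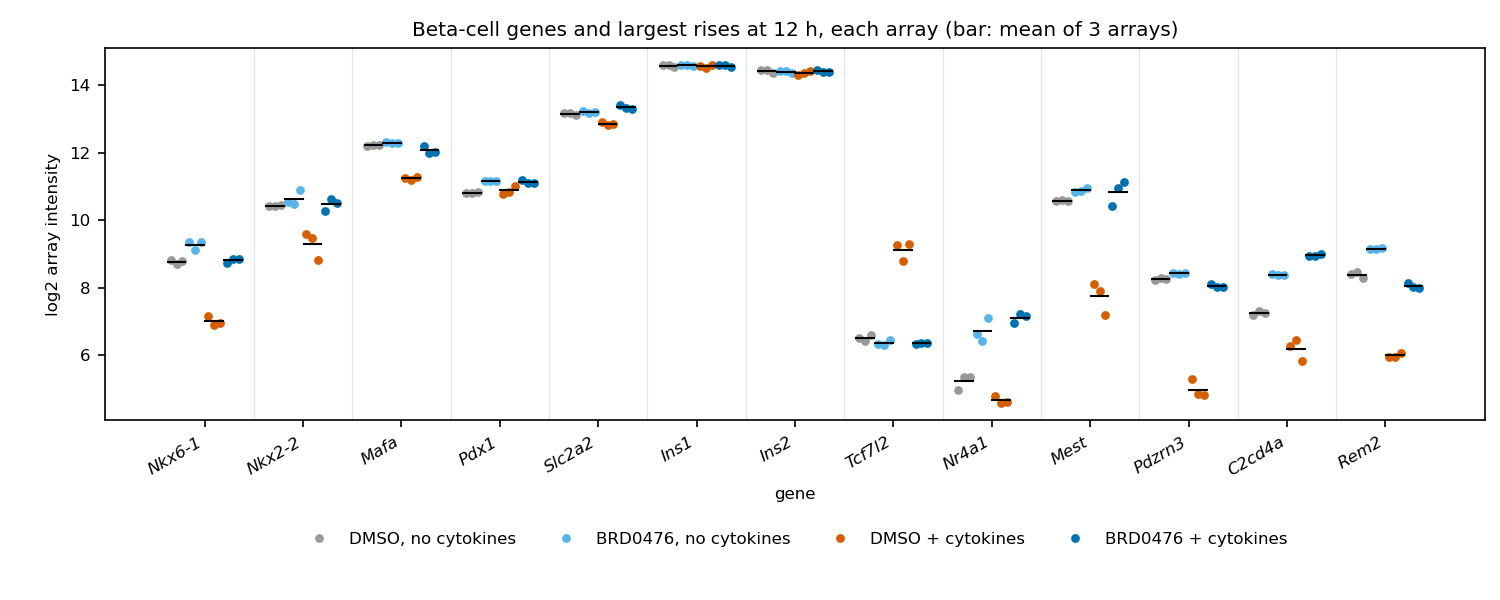
Log2 array intensity of 7 beta-cell genes, Tcf7l2 and 5 of the genes with the largest rises in the 4 groups at 12 h, 1 point per array and a bar at the mean of 3 arrays. Nkx6-1, Mest and Pdzrn3 with BRD0476 and cytokines lie at the level of untreated cells, and Nkx6-1 lies higher with BRD0476 alone. Ins1 and Ins2 are level in all groups, and Tcf7l2 is high only with cytokines and DMSO.

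Of 22 chaperones and degradation genes of the endoplasmic reticulum 15 rose (68.2%), 1 fell and 6 did not pass, with a median of 0.27. Hspa5, the chaperone BiP, read 13.06, 13.13 and 13.13 with DMSO and 13.52, 13.39 and 13.36 with BRD0476, and it rose by 0.32 (SE 0.06, adjusted p = 0.000239). Dnajb9 read 8.89, 8.64 and 8.49 with DMSO and 9.32, 9.45 and 9.42 with BRD0476 and rose by 0.72 (SE 0.14, adjusted p = 0.000605). Atp2a2, the SERCA calcium pump that cytokines lower in beta cells, read 11.31, 11.15 and 11.06 with DMSO and 11.68, 11.87 and 11.66 with BRD0476 and rose by 0.56 (SE 0.08, adjusted p = 7.54e-06). Edem1, which sends misfolded proteins for degradation, fell by 0.86 (SE 0.06, adjusted p = 1.2e-09). With the 6 arrays alone, 9 of the 22 rose. The stress arm of ATF4 and CHOP was split, with 7 of 20 higher and 5 lower. Atf3, a stress-induced repressor, read 8.92, 8.65 and 8.83 with DMSO and 5.93, 5.07 and 5.34 with BRD0476, and fell by 3.35 (SE 0.19, adjusted p = 1.49e-11). It stayed 0.63 above untreated cells (adjusted p = 0.0122). Ddit3, which encodes CHOP, read 9.22, 9.44 and 9.31 with DMSO and 8.88, 8.49 and 8.53 with BRD0476 and fell by 0.69 (SE 0.10, adjusted p = 3.07e-05). Sesn2, Ddit4 and Vldlr rose by 0.65, by 0.62 and by 1.13. Of 24 tRNA synthetases and amino acid transporters 13 rose and 3 fell, with 8 rises without BRD0476 array 1. The tryptophan enzyme Wars1, which IFN-g induces, fell by 1.23 (SE 0.08, adjusted p = 7.92e-11), and the transporter Slc7a5 rose by 0.85 (SE 0.10, adjusted p = 1.91e-06). Of 18 heat shock genes 5 rose (27.8%) and 3 fell (16.7%), beside 16.3% and 10.6% of all genes. The largest change was that of the co-chaperone Bag3, which rose by 0.97 (SE 0.09, adjusted p = 2.92e-08).

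Of 31 NRF2 targets and antioxidant genes 11 rose and 2 fell, with 7 rises and 1 fall without BRD0476 array 3 and 1 fall also without DMSO array 1, DMSO array 3 or BRD0476 array 2. Nqo1, a quinone reductase, read 5.74, 5.43 and 5.57 with DMSO and 6.91, 6.46 and 6.65 with BRD0476, and it rose by 1.09 (SE 0.12, adjusted p = 5.4e-07). Srxn1, which restores peroxiredoxins, rose by 1.08 (SE 0.09, adjusted p = 4.15e-09). Of 22 genes of cholesterol synthesis and uptake 10 rose and none fell, with 1 fall without BRD0476 array 1. Insig1, a sterol sensor, read 10.42, 10.46 and 10.40 with DMSO and 10.94, 11.06 and 11.06 with BRD0476 and rose by 0.59 (SE 0.06, adjusted p = 1.25e-07). Of 28 fatty acid genes 12 rose and 3 fell, with 1 fall without DMSO array 2. The elongase Elovl6 read 6.22, 6.15 and 6.43 with DMSO and 7.63, 7.80 and 7.92 with BRD0476 and rose by 1.52 (SE 0.10, adjusted p = 1.64e-10). The desaturases Fads1 and Scd2 rose by 1.01 and by 0.74. Glycolytic genes were split, with 7 of 26 higher (26.9%) and 4 lower (15.4%), beside 16.3% and 10.6% of all genes. Pfkfb3, which makes the activator of phosphofructokinase, read 10.39, 10.26 and 10.20 with DMSO and 7.81, 7.64 and 7.66 with BRD0476, below its untreated mean of 8.93, and fell by 2.58 (SE 0.08, adjusted p = 1.84e-15). Over the alternative runs its difference lay between -2.67 and -1.26. The phosphofructokinase Pfkp and the aldolase Aldoc fell by 1.91 and by 1.54, and Ldhb rose by 0.90 (SE 0.07, adjusted p = 8.05e-10). Of 47 genes of the respiratory chain and ATP synthase 6 rose (12.8%, beside 16.3% of all genes) and none fell, by 0.14 to 0.27, and leaving out single arrays gave between 1 (without BRD0476 array 3) and 10 (without DMSO array 3) rises.

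Of 27 mitotic genes 3 rose (11.1%) and 2 fell (7.41%), and of 39 replication genes 4 rose (10.3%) and 4 fell (10.3%), beside 16.3% and 10.6% of all genes. The mitotic counts moved by more than 1.5 times when single arrays were left out, to 1 rise and 4 falls without DMSO array 2, 4 falls without BRD0476 array 1 and 1 fall without DMSO array 1. E2f2 fell by 1.33 (SE 0.13, adjusted p = 6e-08). Immediate early genes were split, with 8 of 33 higher and 11 lower. Jun read 9.68, 9.61 and 9.56 with DMSO and 8.14, 7.80 and 7.96 with BRD0476 and fell by 1.65 (SE 0.15, adjusted p = 1.72e-08). Crem, a factor of the cAMP response, read 8.60, 8.47 and 8.66 with DMSO and 10.30, 10.31 and 10.05 with BRD0476 and rose by 1.65 (SE 0.08, adjusted p = 1.67e-12), and all 6 of its probe sets rose. Of 43 proteasome subunits and ubiquitin-specific proteases 7 rose (16.3%, the share of all genes) and 10 fell (23.3%). There were 3 to 4 rises without any of DMSO array 2, DMSO array 3, BRD0476 array 1, BRD0476 array 2 or BRD0476 array 3. Of the falls, 7 were alpha subunits of the proteasome core, Psma1 to Psma7, by 0.23 to 0.41. Usp25 fell by 1.84 (SE 0.11, adjusted p = 2.12e-11) and Usp1 rose by 0.85 (SE 0.08, adjusted p = 4.34e-08). Over the alternative runs the difference of Usp25 lay between -1.91 and -0.91. Usp9x, the deubiquitinase that earlier work linked to BRD0476, read 9.62, 9.51 and 9.78 with DMSO and 9.74, 9.80 and 9.67 with BRD0476 and differed by 0.10 (SE 0.08, adjusted p = 0.382). Of 12 xenobiotic response genes 2 rose (16.7%) and 3 fell (25%). There was 1 rise without DMSO array 2, BRD0476 array 2 or BRD0476 array 3. Among markers of other cell types, Kdr, an endothelial receptor, rose by 1.47 (SE 0.18, adjusted p = 1.43e-06) and Pdgfra, a fibroblast receptor, rose by 0.83 (SE 0.11, adjusted p = 7.34e-06). Both returned towards untreated means of 6.41 and 6.51. The other 3 of 4 endothelial and 6 of 7 fibroblast markers did not pass, and Pecam1, Tek, Col1a2, Col3a1 and Dcn stood below 3.84, the lower quartile of all values. Summed linear intensity of the endothelial list was 109.5 to 112.8 with BRD0476 and 68.5 to 76.4 with DMSO, and of the fibroblast list 578.4 to 939.1 and 436 to 846.2. The part of other cells in these changes was not tested.

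Without cytokines BRD0476 changed far fewer genes at 12 h. Of the 14217 genes 663 (4.66%) passed, 287 higher (2.02%) and 376 lower (2.64%). The test of the difference itself, the interaction of BRD0476 with cytokines, passed for 2170 genes (15.3%), 1191 of them more positive (8.38%) and 979 more negative (6.89%) when cytokines were present. Of the 37 interferon-induced GTPases and antiviral genes 33 had a more negative effect with cytokines, as had 18 of 39 chemokines and cytokine ligands and 15 of 18 class I genes. Cxcl9, for example, read 3.91, 4.66 and 4.02 with BRD0476 alone and 3.97, 4.33 and 4.40 in untreated cells. Gbp4 read 3.54, 2.94 and 3.27 in untreated cells, below the lower quartile of all values (3.84). A gene this dim without cytokines can hardly fall further there. Its negative interaction then follows from its fall with cytokines and adds little to it. Other members were not dim, and Psmb9 read 8.83, 9.06 and 8.93 in untreated cells. Nkx6-1 rose in both settings, by 0.51 without and 1.81 with cytokines, and its interaction was 1.30 (SE 0.16, adjusted p = 4.28e-06). Kctd12 and Nr4a1 likewise rose without cytokines, by 0.96 and 1.49, with interactions of 0.86 and 0.96. Areg changed sign, from a rise of 1.06 without cytokines (adjusted p = 0.000843) to a fall of 3.89 with them, and its interaction was -4.95 (SE 0.25, adjusted p = 1.6e-11). Slc15a2, a peptide transporter, did the reverse. It fell by 0.90 without cytokines and rose by 1.19 with them, from 4.01, 3.76 and 4.34 to 5.05, 5.28 and 5.34, and its interaction was 2.09 (SE 0.18, adjusted p = 2.78e-08).

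At 6 h, on separate arrays, BRD0476 with cytokines changed 6261 genes (44%), 24.7% higher and 19.4% lower, against 3827 at 12 h. Across all genes the differences at both times correlated with Pearson's r = 0.636 and Spearman's rho = 0.451, a description in which genes are not independent. Of 294 genes at least 2-fold higher at 6 h, 211 were also called higher at 12 h and 8 lower, and their median difference went from 1.24 to 0.55. Of 502 genes at least 2-fold lower at 6 h, 339 were also called lower at 12 h and 14 higher, and the median went from -1.39 to -0.90. These genes were picked for a large value at 6 h, so both medians are descriptions. The test of the change in effect between the times passed for 3559 genes (25%), 1687 (11.9%) with a more positive and 1872 (13.2%) with a more negative effect at 12 h. Cxcl9 differed by -7.57 at 6 h and -7.95 at 12 h, with BRD0476 means of 4.54 and 4.32 near the untreated level at both times, so a change in its effect between the times cannot be read. Rsad2 fell by 4.77 at 6 h and by 1.92 at 12 h, a change of 2.85 (SE 0.58, adjusted p = 0.000998). Of the 37 genes of its list 13 had a more positive and 4 a more negative effect at 12 h.

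A few genes turned from a rise at 6 h to a fall at 12 h. Nfkbiz, an inducible partner of NF-kappaB, read 7.10, 6.91 and 6.64 with DMSO and 8.76, 8.72 and 8.61 with BRD0476 at 6 h. At 12 h it read 9.23, 8.99 and 8.93 with DMSO and 8.06, 8.12 and 7.93 with BRD0476. The difference went from 1.81 to -1.01, a change of -2.82 (SE 0.18, adjusted p = 6.59e-10). At 12 h 1 of its 2 probe sets passed. Tnf, which encodes TNF-a, read 6.63, 6.21 and 6.35 with DMSO and 7.35, 7.42 and 7.34 with BRD0476 at 6 h. At 12 h it read 8.53, 8.06 and 7.90 with DMSO and 6.51, 6.85 and 6.44 with BRD0476, so the higher group at 6 h was the lower one at 12 h. Its difference went from 0.98 to -1.56, a change of -2.54 (SE 0.25, adjusted p = 2.74e-07). Egr1, an immediate early gene, changed from 1.46 to -1.25. Mat2a, which makes the methyl donor S-adenosylmethionine, was 2.35 higher with BRD0476 than with DMSO at 6 h and differed by 0.23 (adjusted p = 0.091) at 12 h. At 6 h it read 7.98, 8.03 and 8.40 with DMSO and 10.49, 10.48 and 10.49 with BRD0476. Untreated cells read 10.45, 10.34 and 10.48. Usp9x was 0.92 higher with BRD0476 than with DMSO at 6 h, and its change to 12 h was -0.82 (SE 0.11, adjusted p = 1.11e-05). At 6 h its arrays with DMSO and cytokines read between 8.97 and 9.03. Those with BRD0476 and cytokines lay within the range of untreated cells at 6 h, 9.81 to 10.07.

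**Figure D4:**
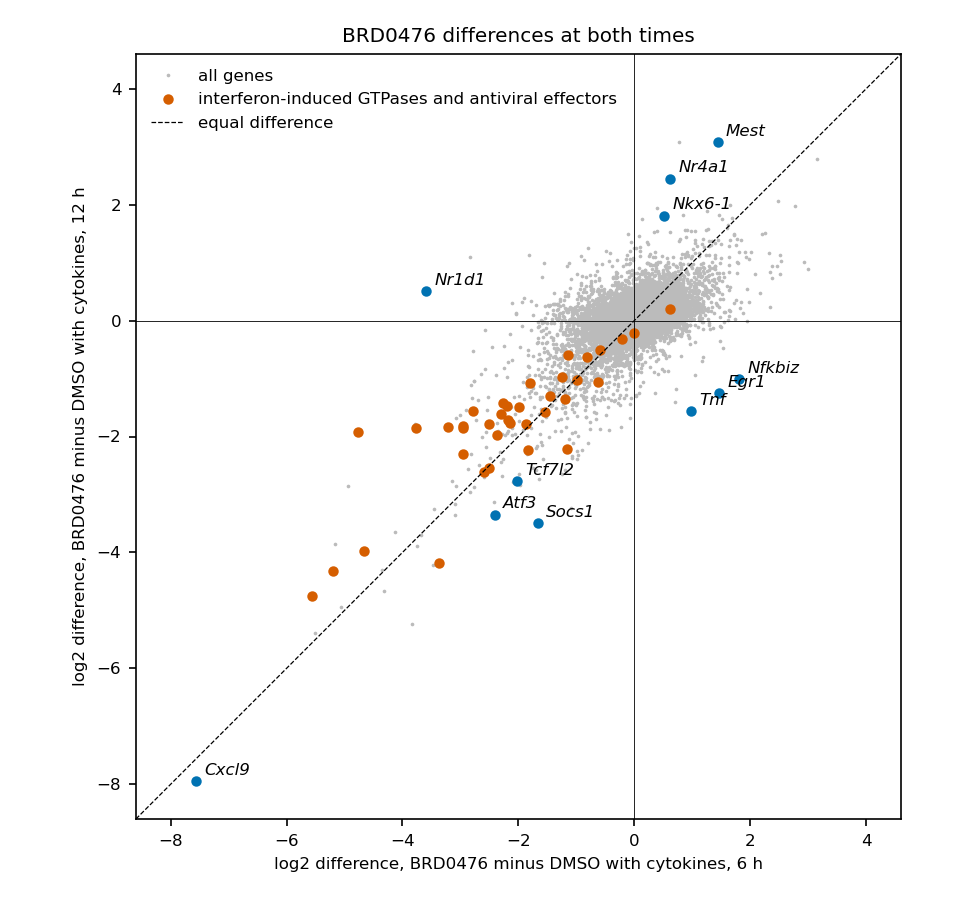
Each point is a gene, with the log2 difference between BRD0476 and DMSO in the presence of cytokines at 6 h on the horizontal axis and at 12 h on the vertical axis, each from 3 arrays against 3. Most interferon-induced genes (orange) are low at both times, Nfkbiz, Egr1 and Tnf are higher at 6 h and lower at 12 h, and Nr1d1 is far lower at 6 h only.

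Nr1d1, Dbp and Bhlhe41, which were among the genes with the largest change between the times, belong to the circadian clock, in which BMAL1 and CLOCK drive the PER, CRY, REV-ERB and PAR bZIP genes that feed back on them. The 16 clock genes measured were taken up after values of some were seen, so their counts are a description. With cytokines, BRD0476 was followed by 1 higher and 11 lower of the 16 at 6 h and by 11 higher and 2 lower at 12 h, and the effect was more positive at 12 h than at 6 h in 13 and more negative in 0. Without cytokines at 12 h, 6 were higher and 2 lower. Of all genes, 24.7% were higher and 19.4% lower with BRD0476 and cytokines at 6 h, and 16.3% and 10.6% at 12 h. The effect was more positive at 12 h in 11.9% of all genes and more negative in 13.2%. Without cytokines at 12 h, 2.02% of all genes were higher and 2.64% lower. Nr1d1, the repressor REV-ERB alpha, read 9.60, 9.66 and 8.51 with DMSO and 5.47, 5.75 and 5.79 with BRD0476 at 6 h. At 12 h it read 5.79, 5.64 and 4.87 with DMSO and 5.70, 6.11 and 6.02 with BRD0476, and the groups overlapped. Its difference went from -3.59 to 0.51, a change of 4.10 (SE 0.35, adjusted p = 5.03e-08). Dbp, a target of the clock, read 7.45, 7.42 and 7.42 with DMSO and 8.45, 8.58 and 8.65 with BRD0476 at 12 h, and its difference went from -1.81 to 1.13. Bhlhe41 and Nfil3 followed the same course, from -1.55 to 0.996 and from -0.80 to 1.25. With cytokines and DMSO the group means of these 4 genes were above those of untreated cells at 6 h, and those of Dbp, Bhlhe41 and Nfil3 were below them at 12 h. With BRD0476 and cytokines the group means at both times stayed within 1 of the untreated mean of the same time. At 12 h Nr1d1, Bhlhe41 and Nfil3 were nevertheless above untreated cells by 0.82, 0.36 and 0.53 (limma adjusted p = 0.0149, 0.00117 and 9.02e-05). Dbp differed by 0.23 and did not pass (adjusted p = 0.0817). Nfil3 at 6 h had a mean of 8.78 with both agents and 7.82 in untreated cells. Other members took other courses. Bhlhe40 was lower with BRD0476 at both times, by -1.53 and -0.39, Per2 went from -0.04 (not past the test) to 0.80, and Per3 and Clock did not pass at 12 h. Dbp, Bhlhe41, Tef, Nr1d2, Per1 and Per2 also rose with BRD0476 without cytokines at 12 h, by 0.49 (Nr1d2) to 0.84 (Per2). Bmal1 was lower with BRD0476 at 12 h in both settings. It read 7.10, 6.80 and 6.84 with DMSO and 5.48, 4.75 and 4.64 with BRD0476 with cytokines, a difference of -1.96 (SE 0.19, adjusted p = 4.93e-08), and differed by -1.45 (SE 0.19, adjusted p = 3.93e-05) without them. Cry2, a repressor of the clock, read 7.35, 7.35 and 7.40 with DMSO and 8.75, 8.55 and 8.53 with BRD0476 with cytokines and rose by 1.25 (SE 0.08, adjusted p = 1.18e-10).

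**Figure D5:**
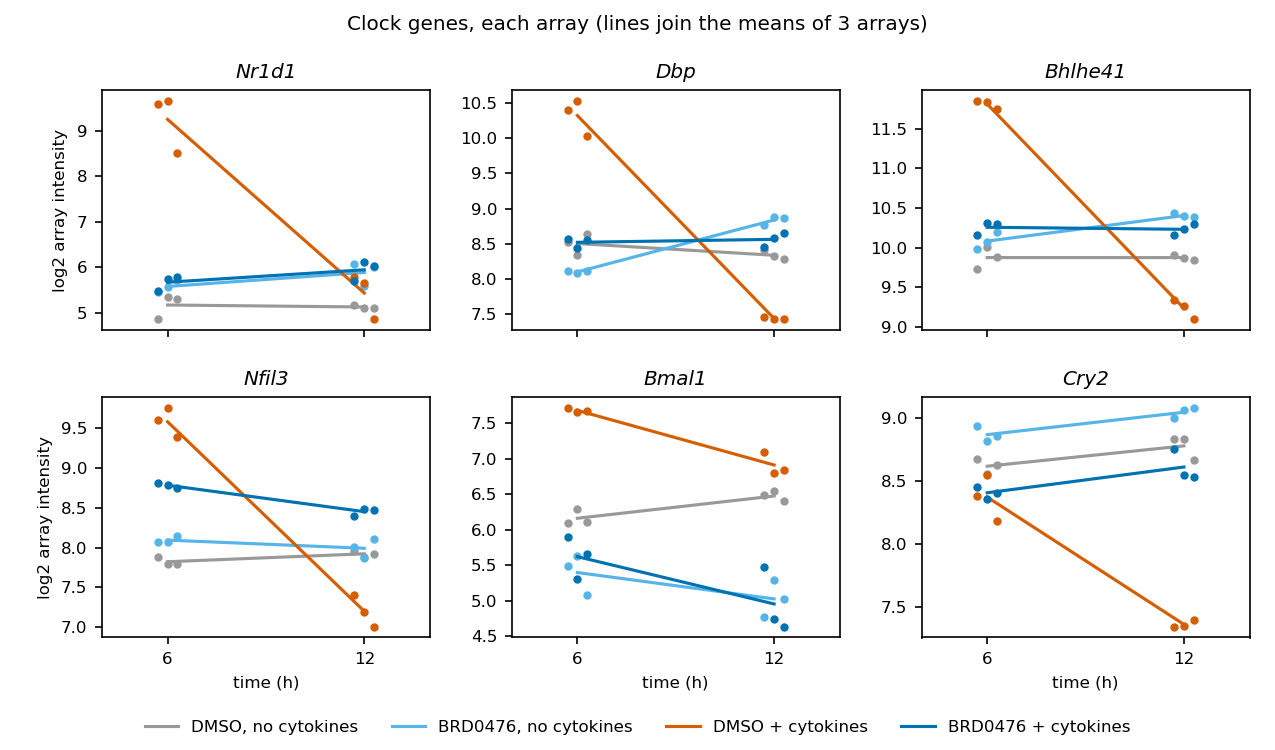
Log2 array intensity of 6 clock genes at 6 and 12 h, 1 point per array, with lines joining the means of 3 arrays of each of the 4 treatments. Nr1d1, Dbp, Bhlhe41 and Nfil3 are highest at 6 h with cytokines and DMSO, Nfil3 with BRD0476 and cytokines at 6 h lies between that group and untreated cells, and Bmal1 is lower in both BRD0476 groups.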

How the data were processed

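Gene expression was measured on 24 one-colour Affymetrix arrays of rat INS-1E cells, 3 in each of 8 groups, which the labels give by treatment and time. The deposited values are linear array intensities, normalized with RMA per the submitters' processing notes. The RMA version, the chip definition and how the log2 values of RMA were returned to a linear scale are not given in the sources used here. The intensities were taken to log2 with no further normalization. Of 31099 probe sets, 57 controls were left out, and 20826 probe sets with 1 current gene symbol gave 14217 genes, each read by its brightest probe set (4525 genes had several). Another 436 probe sets had several symbols and 9780 none, and 50 named gene records had no current entry.

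A mean for each group was estimated over all 24 arrays by limma (version 3.58.1, run under R 4.3.3) with 16 residual and 3.97 prior degrees of freedom, followed by Benjamini-Hochberg adjustment over the 14217 genes and a threshold of 0.05. The comparison of BRD0476 with DMSO under cytokines at 12 h, its interaction with cytokines and its difference between 12 and 6 h are contrasts of this fit. An exact permutation test of 3 arrays against 3 cannot go below p = 0.1 for a single gene. The text names the 12 largest rises and falls whose groups do not overlap, up to 5 called genes per list (2 where none was called), a panel of genes of the pathway, and the 6 largest rises and falls of each further contrast. Further genes named outside this rule were chosen after their values were seen, and these are list members that make up small counts, receptor and chaperone genes without a call and the clock genes. The comparison, the 30 pathway lists and the 6 marker lists were chosen with earlier results of these data known. On data simulated for the comparison of BRD0476 with DMSO under cytokines at 12 h over 14217 genes, 39 of 50 changes of 0.5 and 49 of 50 changes of 1 on the log2 scale were recovered. Of changes of 0.25, 7 of 50 were recovered. In the simulation 151 genes passed, against 3827 in the data. The adjustment is stricter where fewer genes change, so these rates cannot be carried over to the data. Alternatives changed the normalization, the probe set rule, the filter on dim genes, the variance model, the arrays in the fit and the replicate block. The files hold no detection calls, and the number of arrays limits the precision.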

Additional observations from a re-analysis of the deposited data

Results flagged for a closer look

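The effect of BRD0476 at 12 h differed with cytokines from that without them in 2170 genes by limma's interaction test. The most negative interactions were those of Cxcl9 (-7.92), C1s (-5.54), Mpeg1 (-5.17), Gbp4 (-4.96), Areg (-4.95) and Ifit2 (-4.59) on the log2 scale. The most positive were those of Pdzrn3 (2.91), Mest (2.77), Hbegf (2.11), Slc15a2 (2.09), Fam163b (2.08) and Nptx1 (2.06). These 12 were chosen as the largest. In untreated cells at 12 h the arrays of the genes with the most negative interactions read between 2.94 (Gbp4) and 4.55 (Mpeg1). Levels so near the bottom of the scale leave little room for a fall without cytokines, so these interactions mostly restate the falls with cytokines.

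The effect of BRD0476 with cytokines differed between 12 h and 6 h in 3559 genes by the same kind of test. It was more negative at 12 h for Nfkbiz (-2.82), Egr1 (-2.72), Tnf (-2.54), Mat2a (-2.12), Eeig2 (-2.10) and B4galt5 (-2.0). It was more positive at 12 h for Nr1d1 (4.10), Barhl1 (3.92), Dbp (2.94), Rsad2 (2.85), Bhlhe41 (2.55) and Ubald1 (2.42).

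Probe sets without a single gene name were outside the comparisons above. In a fit of all 31042 probe sets, 1326 of 10216 such probe sets passed the test (12.98%, against 18.25% of all), 736 higher and 590 lower with BRD0476, with changes on the log2 scale from -5.74 to 2.11.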

How the results depend on the processing

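Of 181 genes tested by name in the comparison at 12 h, 144 kept their direction and their side of the threshold under each alternative run, and the 12 genes named for the interaction and the 12 named for the difference between times did so too. Some of these genes changed in size. The difference of Tcf7l2 lay between -2.94 and -1.30, and the interaction of Mpeg1 between -5.24 and -2.99. With only the arrays of the groups compared in the fit, 2379 genes passed, 1310 of them higher, and 90 list genes were higher in place of 146. Leaving out each array of the comparison in turn gave 3286 to 3641 genes (1892 to 2236 higher, 1277 to 1470 lower), 309 to 333 list genes (120 to 140 higher, 180 to 193 lower), 1837 to 2192 for the interaction (946 to 1270 more positive, 852 to 1016 more negative) and 3075 to 4036 for the difference between times (1447 to 2038 and 1586 to 1998). Leaving out BRD0476 array 1 and DMSO array 3 together, chosen after seeing the data, gave 3059 genes (1660 higher, 1399 lower) and lost 13 of the named calls. The sign turned for Ins1 with centred arrays (-0.0125), with quantile normalization (-0.0279) and without DMSO array 2 (-0.0078), for Ppy without DMSO array 1 (-0.0094), for Nos2 without DMSO array 1 (0.0024) or BRD0476 array 1 (0.0120) and for Cpa1 without DMSO array 2 (0.0861). Over the arrays left out in turn, the values ran from -0.0078 to 0.0349 for Ins1, -0.0094 to 0.2683 for Ppy, -0.0463 to 0.0120 for Nos2 and -0.3263 to 0.0861 for Cpa1. None of these genes passed the test in the full data, and the cause was not tested.

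Arrays of the same number correlated in their deviations with r of -0.196, 0.225 and -0.46, without a common sign. The deviations of 3 arrays from their own mean are tied to each other, so these values cannot decide whether the numbers pair the arrays. With the replicate number as a block, 3752 genes passed (2268 higher, 1484 lower), with 2109 for the interaction, 3461 for the difference between times and 336 list genes, and all 181 named genes kept their call. Centring the arrays on their medians moved the median of all genes from 0.036 to 0.00822 and the share of higher genes among the calls from 60.7% to 54%. The filter on dim genes kept 9774 of the 14217 genes, with 4443 left out below 5.53. Levels near the bottom of the scale can hide further falls, and 3 arrays a group limit what small changes can be told.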
